A study of Mus musculus with 38 samples.

Results

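A set of 40 genes of cell proliferation was examined, and 39 of them have a value among the 19937 genes measured. They were listed by name from what is known of the cell cycle, a choice made with earlier results of these data known. For each gene 1 probe set was used, the one with the highest mean over all arrays. The set holds 9 S phase genes (Mcm2 to Mcm7, Pcna, Rrm1 and Rrm2), 5 genes of G1/S entry and nucleotide supply (Ccne1, Ccne2, Cdc6, Tyms and Tk1) and 25 mitotic genes. Ccnb1, the remaining mitotic gene, has no probe set with a single symbol and so has no value here, but its promoter is counted below. Tk1 is of uncertain value: its probe set used here is highest in steady-state lymph node DC (9.12), whereas its other probe set is highest in dermal DC after DNFB (7.18) and at steady state (7.15).

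The cells came from female wild-type C57BL/6 mice aged 6 weeks, and each array holds RNA of cells sorted from a pool of animals, so that spread between single mice is not seen. Ears were painted 3 days before harvest with 10 µl of 0.5% 2,4-dinitrofluorobenzene (DNFB), a contact sensitiser, in acetone and olive oil, or the mice were left at steady state. From draining lymph nodes came CD64+ Ly6C+ cells after DNFB, whose labels name them in different ways and which stand here as a group of their own, and CD64-negative CD11c+ MHC II high dendritic cells (DC) after DNFB and at steady state. All populations are CD11b+. From ear dermis came the macrophage gates P5 (CD64+, Ly6C-, CCR2-, MHC II+) and P4 (the same without MHC II) at steady state, and CD24- CD64- MHC II+ dermal DC in both conditions. The monocyte-derived gates were P3 (CD64+, Ly6C low, CCR2+, MHC II+) at steady state, and P2 (CD64+, Ly6C high, CCR2+, MHC II+) and P1 (CD64 low, Ly6C high, CCR2+, no MHC II) in both conditions. Ly6C high blood monocytes at steady state complete the 13 populations. Each has 3 arrays, except P1 after DNFB with 2.

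A cell that divides copies its DNA in S phase and separates the copies in mitosis. The Mcm proteins form the helicase that opens the DNA, Pcna is the clamp that holds the polymerase, and Rrm1 with Rrm2 makes deoxynucleotides. Cyclin E (Ccne1, Ccne2) and Cdc6 prepare the start of replication. Cdk1 with cyclins A and B drives entry into mitosis, and the kinesins, Aurora kinases, Bub checkpoint kinases and centromere proteins move and check the chromosomes. Mki67 is the standard marker of cycling cells. Circulating monocytes are mostly out of cycle, whereas tissue macrophages and DC can divide where they reside.

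Of the short motifs searched in the promoters, CHR and E2F letters differed between mitotic and S phase members, and CCAAT was frequent in both. Letters were searched on both strands in windows of 300 bases, 250 before and 50 after the start (RefSeq, build GRCm38.p6), and overlapping matches were all allowed. The motifs were CHR (TTTGAA), the CCAAT box (CCAAT) and 4 spellings of an E2F site. The E2F spellings were TTCCCGC with its variant TTGGCGC, then TTCGCGC with its variant TTGCCGC. Of 23 windows of 22 mitotic members, Ccnb1 included, 17 held CHR (73.9%), 20 held CCAAT (87%) and 3 held E2F letters (13%). In 9 windows of 8 S phase members the counts were 1 for CHR (11.1%), 9 for CCAAT (100%) and 7 for E2F letters (77.8%). Among all 32851 windows, 17.9% held CHR, 37.4% CCAAT and 9.57% E2F letters. Both CHR and CCAAT stood in 73.9% of mitotic windows and in 6.95% of all windows. A match is a run of letters, not a shown binding site. The promoters shown are those of the 2 mitotic and the 2 S phase members with the smallest adjusted p in dermal P2 against P1 cells, and capitals mark the motif letters on either strand. They lie at chr11:99024140-99024439 for Top2a (minus strand), chr10:69352863-69353162 for Cdk1 (minus), chr1:20820263-20820562 for Mcm3 (minus) and chr12:24708004-24708303 for Rrm2 (plus).
Top2a: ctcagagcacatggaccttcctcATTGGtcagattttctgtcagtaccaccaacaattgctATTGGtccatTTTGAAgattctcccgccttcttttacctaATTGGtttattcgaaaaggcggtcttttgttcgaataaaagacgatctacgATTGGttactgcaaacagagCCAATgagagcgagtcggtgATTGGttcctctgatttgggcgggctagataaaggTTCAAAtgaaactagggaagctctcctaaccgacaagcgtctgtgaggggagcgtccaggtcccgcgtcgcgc
Cdk1: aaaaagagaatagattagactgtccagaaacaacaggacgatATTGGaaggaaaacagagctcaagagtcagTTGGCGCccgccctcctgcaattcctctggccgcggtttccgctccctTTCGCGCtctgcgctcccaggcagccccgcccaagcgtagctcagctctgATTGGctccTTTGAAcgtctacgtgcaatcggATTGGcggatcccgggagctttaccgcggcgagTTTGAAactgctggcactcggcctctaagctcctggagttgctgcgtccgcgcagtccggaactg
Mcm3: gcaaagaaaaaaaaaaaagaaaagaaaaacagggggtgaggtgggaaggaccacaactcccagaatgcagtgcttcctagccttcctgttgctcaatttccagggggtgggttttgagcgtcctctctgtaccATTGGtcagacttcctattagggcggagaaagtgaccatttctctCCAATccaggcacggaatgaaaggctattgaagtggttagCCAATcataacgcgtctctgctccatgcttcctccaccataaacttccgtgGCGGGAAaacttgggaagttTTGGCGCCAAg
Rrm2: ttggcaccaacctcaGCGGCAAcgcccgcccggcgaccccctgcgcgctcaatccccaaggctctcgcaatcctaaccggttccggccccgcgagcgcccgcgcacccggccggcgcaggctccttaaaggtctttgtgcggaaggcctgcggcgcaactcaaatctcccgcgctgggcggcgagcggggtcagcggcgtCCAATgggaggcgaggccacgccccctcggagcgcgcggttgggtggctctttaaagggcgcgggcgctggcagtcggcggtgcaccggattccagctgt
The Top2a window holds 2 CHR and 6 CCAAT matches and no E2F letters, and that of Cdk1 holds 2 CHR, 3 CCAAT and 2 E2F matches. The Mcm3 window holds no CHR, 3 CCAAT and 3 E2F matches, and that of Rrm2 1 CCAAT and 1 E2F match.

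All values are log2 intensities, and differences are log2 with the standard error (SE). Array medians ran between 4.39 and 4.65, and the number of arrays limits the precision. A value under 4.02, the 40th percentile of all values, is called low signal, and a difference that reaches below it has no exact size. A gene rose or fell where limma's p, adjusted by Benjamini-Hochberg over all 19937 genes, was under 0.05. RNA of other cells varied between populations: the mean of 13 keratinocyte genes was 4.32 to 4.49 in node populations, 5.47 to 7.37 in dermal ones and 4.26 in blood. The mean of 12 fibroblast genes was 5.10 to 5.37 in node populations, 5.91 to 8.52 in dermal ones and 5.27 in blood, and 4 of 7 B cell genes had low signal in each node and DC population. These are bulk samples, in which fewer cycling cells and less of these transcripts per cycling cell cannot be told apart.

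Steady-state dermal DC had the highest level of 27 of the 39 measured members (69.2%), a share that is 6.92% over all genes. The mitotic members moved most. Their population means spanned a median of 2.32, with a range of 4.21 for Ccnb2, which encodes cyclin B2, and of 0.48 for the checkpoint kinase gene Ttk, whose signal was low in every population. The S phase members spanned a median of 1.87 and the G1/S members 0.84, against 0.70 over all genes. Of the 39 members 14 had low signal in at least 1 population, 12 of them mitotic and 0 of them S phase genes.

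**Figure D1:**
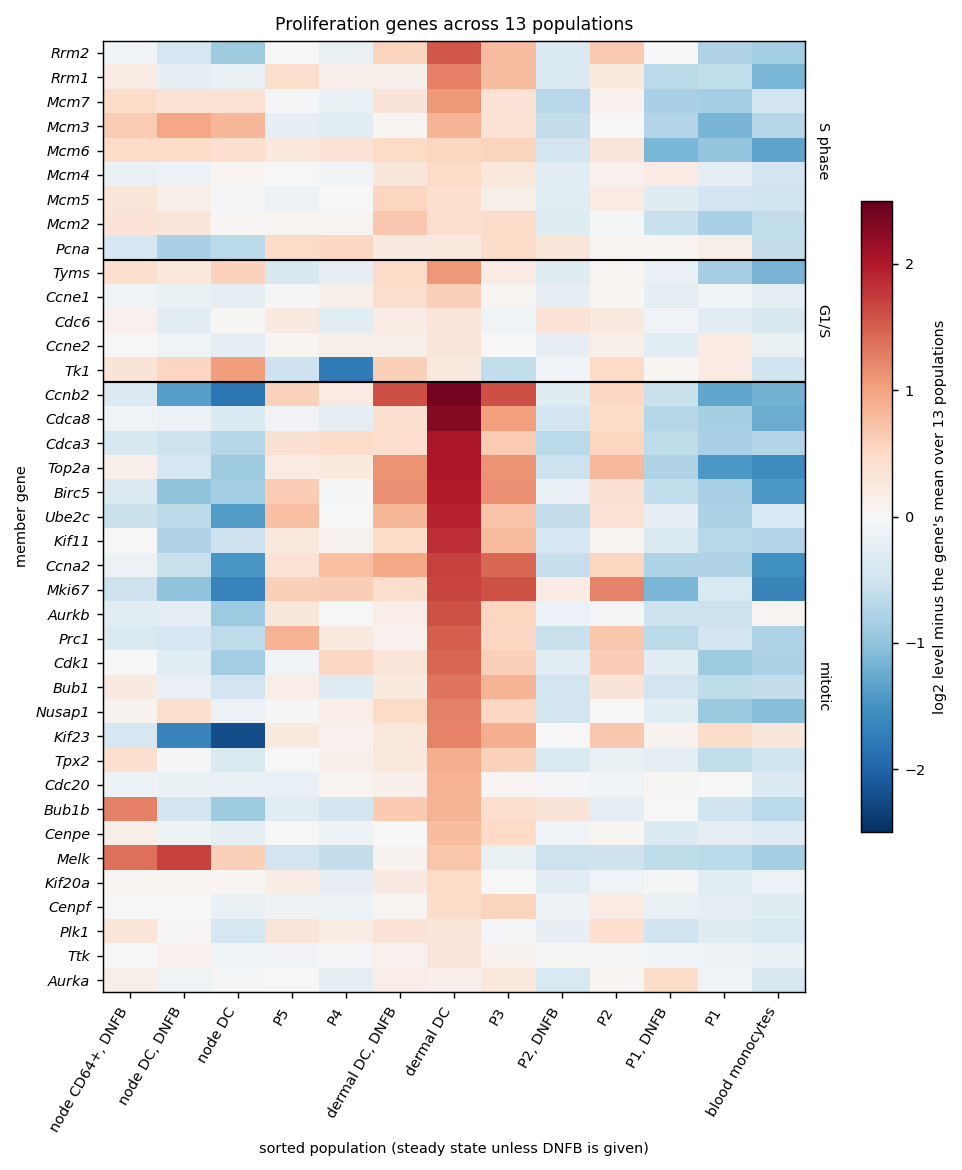
Heat map of the 39 measured members (rows, in 3 classes) in the 13 populations (columns), coloured by log2 level minus the gene's mean over populations. The dermal DC column is the reddest among mitotic genes. Melk is highest in node DC after DNFB, and Bub1b is highest in node CD64+ cells (6.34) and lowest in steady-state node DC (4.19).

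To set the classes side by side without comparing probes, each gene's mean over the 13 populations was subtracted and the median of each class was taken per array. The mitotic median was 1.33 ± 0.34 in steady-state dermal DC (SD, n = 3), 0.59 in P3, 0.36 in dermal DC after DNFB and 0.25 in P2, and -0.65 ± 0.05 in blood monocytes at the bottom. Neighbours in that order lie within their spread in most places: the lowest dermal DC array, at 0.98, was below the highest P3 array. The S phase median was 0.71 ± 0.36 in steady-state dermal DC, 0.42 in P3, 0.36 in dermal DC after DNFB and 0.26 in node CD64+ cells, and lowest in steady-state P1 at -0.70 ± 0.20. Over the 13 populations both medians had a Pearson r of 0.80, a description of points that share arrays and normalization.

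The balance of the classes was lowest in lymph node cells and highest in steady-state dermal DC. The mitotic median minus the S phase median was 0.61 ± 0.06 in steady-state dermal DC, the highest value, with arrays between 0.55 and 0.66. In steady-state node DC it was -0.58 ± 0.04, the lowest value, in node DC after DNFB -0.42 ± 0.20 and in node CD64+ cells -0.27 ± 0.03. Dermal DC after DNFB were at -0.00 ± 0.21, with arrays at 0.04, 0.18 and -0.22. All 9 node arrays were at -0.23 or below, but 1 P4 array (-0.44) and 1 steady-state P1 array (-0.24) lay in that range too, and the lowest dermal DC array after DNFB lay next to it. Steady-state node DC had an S phase median of 0.03 ± 0.06, near the middle of all populations, and a mitotic median of -0.55 ± 0.09, the third lowest.

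**Figure D2:**
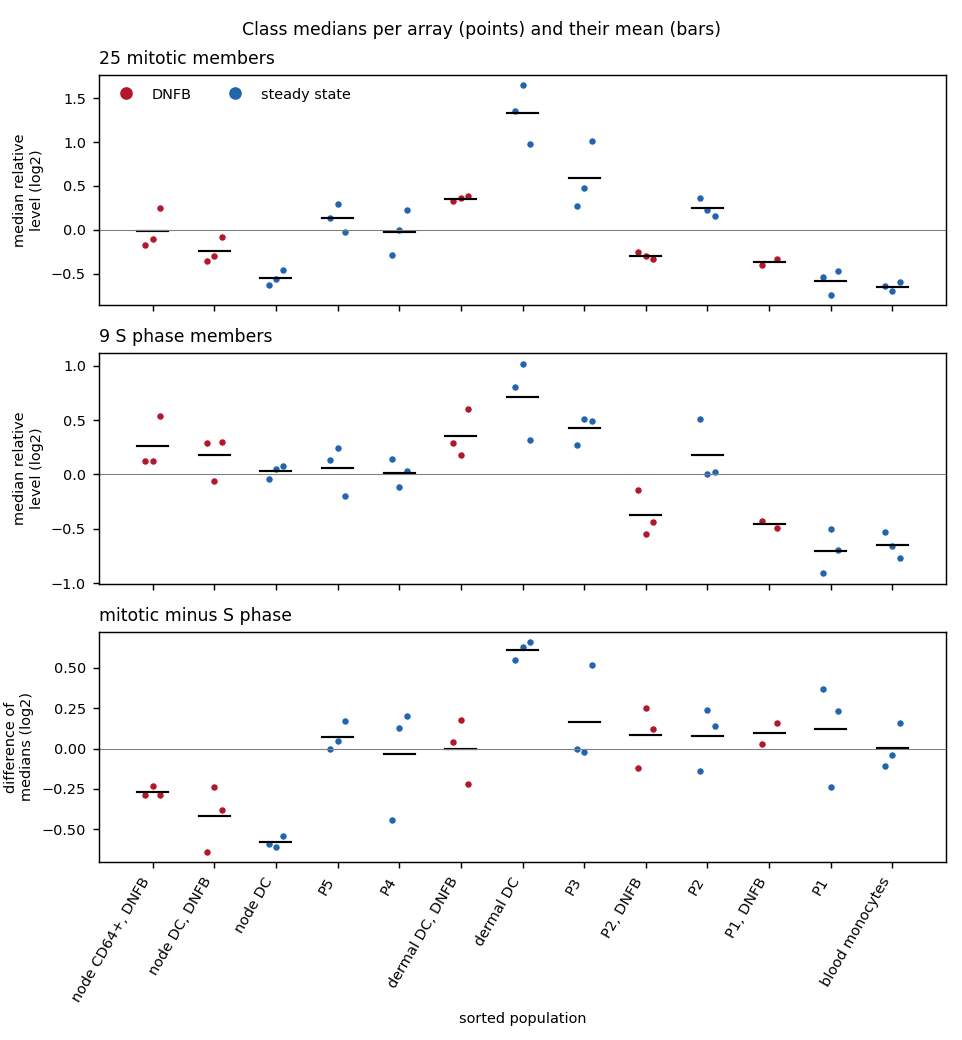
Median relative log2 level per array (points, red after DNFB and blue at steady state) and population mean (bars) for the 25 mitotic members, the 9 S phase members and their difference. The difference is highest in steady-state dermal DC (0.61) and lowest in steady-state node DC (-0.58).

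Single members departed from their class. Pcna had an r of 0.10 with the median of the other S phase members over the 13 populations, against 0.92 for Mcm2. Of the 9 S phase members 4 followed the mitotic median more closely than that of the other S phase members: Rrm1 (r of 0.94 and 0.83), Rrm2 (0.95 and 0.66), Mcm4 (0.78 and 0.66) and Pcna (0.51 and 0.10). Melk, a kinase gene of dividing and progenitor cells, had an r of 0.19 with the other mitotic members and 0.60 with the S phase members, and was highest in node DC after DNFB. The Aurora A kinase gene Aurka and Kif23, a kinesin gene of cytokinesis, had an r of 0.40 and 0.53 with the other mitotic members. Genes outside the set were compared with the mean of each class instead of its median. Most like the mitotic mean were Pclaf, which encodes a Pcna-binding factor (r = 0.970, n = 13 populations), and the kinetochore gene Spc24 (0.966). The formin gene Diaph3 (0.965) and the kinesin gene Kif18b (0.960) came next. Ncapd2, a condensin gene, was the most like the S phase mean (0.939). Genes in none of the lists used here ranked high too, such as Micos13 (0.922) and Oxct1 (0.913) for the S phase mean. The lectin gene Cd209e (0.923) did so for the mitotic mean. All these genes outside the set were highest in steady-state dermal DC.

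Between dermal P1 cells and blood monocytes 2 of 39 members rose and 0 fell, where 5.21% of all genes rose and 7.43% fell, so the share of members that rose is that of all genes. Mki67 had 6.30, 6.68 and 6.38 in P1, against 4.93, 5.47 and 5.09 in blood. All P1 arrays were above all blood arrays, by 1.29 (SE 0.25, adjusted p = 0.00059). Pcna rose by 0.74 (SE 0.17, adjusted p = 0.0042), a call that ended when its probe sets were averaged (adjusted p = 0.14). Top2a, which encodes the topoisomerase that untangles chromosomes, averaged 4.04 in P1 and 3.88 in blood, at or near low signal in both. Of 29 other cell cycle regulators 5 rose and 6 fell, among them Myc, a growth regulator, at 9.57 in P1 and 6.83 in blood (2.74, SE 0.29). Among 38 other mitotic genes the centromere histone gene Cenpa rose by 2.37 (SE 0.30) and Racgap1, a gene of cytokinesis, fell by 1.91 (-1.91, SE 0.29). The mean of keratinocyte genes was 6.89 in P1 and 4.26 in blood, that of fibroblast genes 8.47 and 5.27, and their part in these results was not tested.

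Dermal P2 cells had more of both classes than P1 cells at steady state. Of 39 members 10 rose and 0 fell, where 1.34% of all genes rose: 6 of 25 mitotic and 4 of 9 S phase members. The median difference was 0.76 for mitotic and 0.86 for S phase members. Top2a had 6.72, 6.01 and 6.11 in P2, against 4.33, 4.00 and 3.79 in P1. Its lowest P2 array was far above the highest P1 array, and it rose (fitted difference 2.24, SE 0.25, adjusted p = 4.6e-07), though 2 of the 3 P1 arrays had low signal, so the size is not exact. Cdk1, the kinase that drives mitosis, had 5.90, 5.23 and 5.62 in P2, against 4.13, 3.93 and 4.22 in P1 (1.49, SE 0.22, adjusted p = 6e-05). Mki67 rose by 1.63 (SE 0.25), and Cdca3, which helps trigger mitotic entry, by 1.35 (SE 0.29). In S phase, Mcm3 had 6.77, 6.10 and 5.45 in P2, against 5.11, 5.09 and 4.68 in P1. The P2 arrays were spread more widely than the P1 arrays but did not overlap them (1.14, SE 0.22, adjusted p = 0.0026). Rrm2, the regulated subunit of ribonucleotide reductase, rose by 1.41 (SE 0.32). Mcm5 was 0.68 higher (SE 0.20, adjusted p = 0.089). The count was 6 without P1 array 1, P2 array 1 or P2 array 3, and 2 (Top2a and Mki67) with only the compared groups fitted. Without P2 array 1 the adjusted p was 0.16 for Rrm2 and 0.054 for Cdca3. Outside the set, E2f8, a repressor of the E2F family, rose by 1.56 (SE 0.26) and the DNA ligase gene Lig1 by 1.02 (SE 0.26). The mean of fibroblast genes was 8.52 in P2 (arrays 8.31 to 8.71) and 8.47 in P1 (arrays 7.27 to 10.19), that of keratinocyte genes 7.37 and 6.89, of macrophage genes 9.34 and 8.05 and of monocyte genes 9.21 and 10.50. Their part was not tested.

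**Figure D3:**
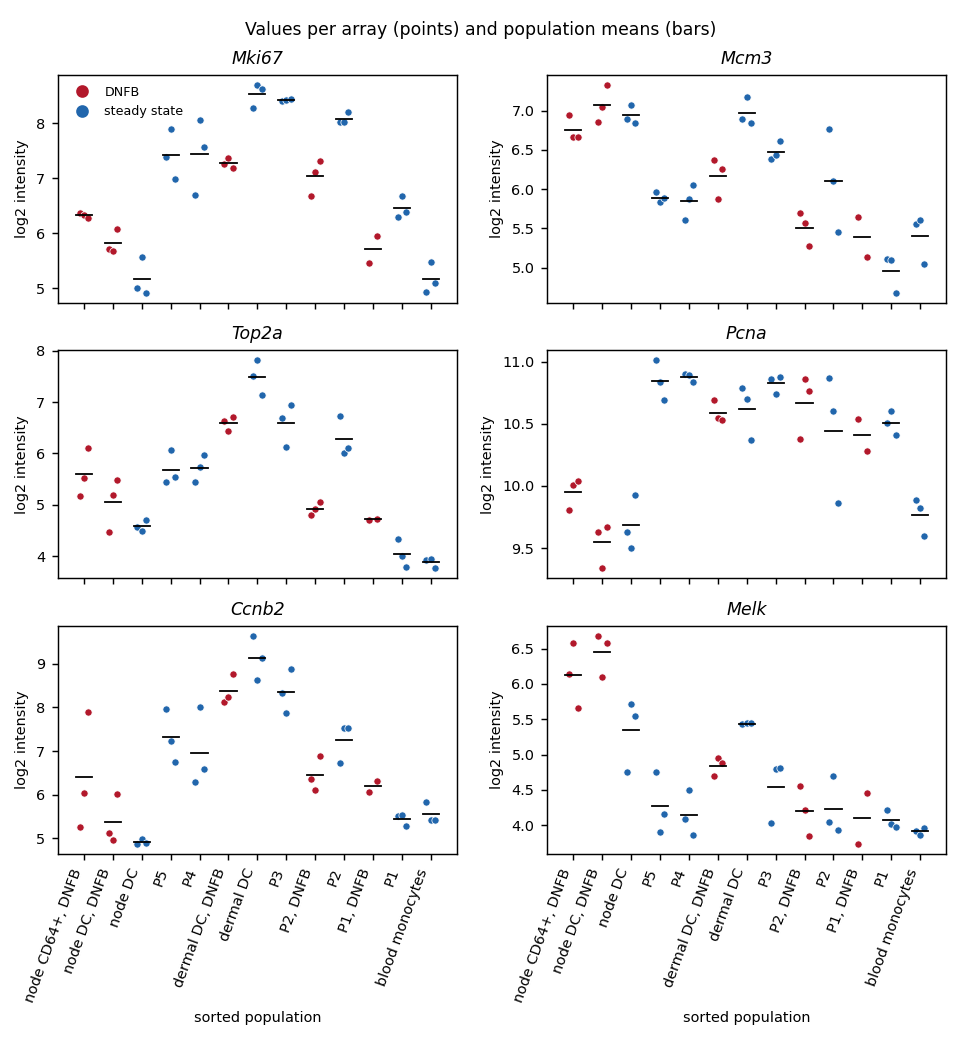
Log2 intensity per array (points, red after DNFB and blue at steady state) with population means (bars) for 6 members in the 13 populations. Mki67, Top2a and Ccnb2 are highest in steady-state dermal DC, Mcm3 is as high in node DC, Pcna is lower in node cells and blood, and Melk is highest in node cells after DNFB.

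Between P3 and P2 cells limma called no member (0 of 39), where 0.371% of all genes were called in either direction. The count was 1 without P2 array 1 and also without P3 array 2. Mki67 had 8.41, 8.43 and 8.44 in P3, against 8.02, 8.02 and 8.20 in P2.

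Dermal DC were above P3 cells in 3 members, all mitotic, where 0.747% of all genes rose. Cdca3 had 8.29, 7.62 and 7.90 in dermal DC, against 5.62, 7.06 and 6.90 in P3 (1.41, SE 0.29, adjusted p = 0.0051). Cdk1 rose by 0.85 (SE 0.22) and Cdc20, an activator of the anaphase ubiquitin ligase, by 0.82 (SE 0.22). The median difference was 0.74 for mitotic and 0.28 for S phase members. The count was 0 with only the compared groups fitted, 0 without P3 array 1, 1 without P3 array 2 or dermal DC array 2, 5 without dermal DC array 3 and 10 without P3 array 3. Among other mitotic genes 5 of 38 rose, Kif15 and Racgap1 among them (1.10, SE 0.17, and 1.40, SE 0.29).

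Dermal macrophages had lower mitotic levels than dermal DC. In P5, 20 of 39 members fell and 0 rose, where 3.37% of all genes fell, and in P4, 28 fell and 0 rose, where 4.50% of all genes fell. Both comparisons use the same dermal DC arrays. With only the compared groups fitted the calls numbered 11 in P5 and 13 in P4, and the shares of all genes in those fits were not counted. Mitotic members made up 16 of the P5 falls and 22 of the P4 falls, and S phase members 3 and 4. The median difference from dermal DC was -1.17 for mitotic and -0.58 for S phase members in P5, and -1.14 and -0.53 in P4. Cdca8, a subunit of the complex that carries Aurora B, had 5.73, 4.76 and 5.92 in P5 and 5.05, 4.92 and 5.97 in P4, against 8.62, 7.78 and 7.17 in dermal DC. The groups did not overlap, and it was 5.23-fold lower in P5 (-2.39, SE 0.37) and 5.81-fold lower in P4 (-2.54, SE 0.37). Top2a fell by 1.80 in P5 (-1.80, SE 0.25, adjusted p = 8.9e-06) and by 1.77 in P4 (-1.77, SE 0.25, adjusted p = 5.7e-06). Mki67 fell by 1.11 in P5 (-1.11, SE 0.25, adjusted p = 0.0037) and by 1.09 in P4 (-1.09, SE 0.25, adjusted p = 0.003). Both Mki67 calls were lost with only the compared groups fitted (adjusted p of 0.08 in P5 and 0.15 in P4), and that in P4 also without P4 array 1 (0.056). Pcna averaged 10.85 in P5, 10.88 in P4 and 10.62 in dermal DC, and was called in neither comparison. E2f8 fell by 1.56 in P5 (-1.56, SE 0.26) and 2.03 in P4 (-2.03, SE 0.26). The mean of keratinocyte genes was 6.99 in P5, 6.98 in P4 and 6.43 in dermal DC, that of macrophage genes 10.79, 10.89 and 8.68 and that of conventional DC genes 5.93, 4.92 and 7.53, and their part was not tested.

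Between the macrophage gates, P5 against P4, no member was called (0 of 39), where 0.492% of all genes were called. P5 against P3 gave 1 fall, Mki67, where 0.697% of all genes fell. Mki67 had 7.38, 7.90 and 6.98 in P5, against 8.41, 8.43 and 8.44 in P3, and it was 2.01-fold lower (SE 0.25 in log2, adjusted p = 0.034). This call was lost without any 1 of 5 arrays (all but P5 array 2), with adjusted p between 0.086 and 0.24, and with only the compared groups fitted (0.31).

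Within the set, lymph node DC differed from dermal DC at steady state mainly in mitotic genes. Of 39 members 26 fell and 0 rose, where 10.1% of all genes fell. Mitotic members made up 21 of these, with a median difference of -2.13, and S phase members 4, with a median of -0.46. Mki67 had 5.01, 5.57 and 4.92 in node DC, against 8.28, 8.70 and 8.62 in dermal DC. The groups lay far apart, and Mki67 was 10.3-fold lower (-3.37, SE 0.25, adjusted p = 9.5e-12). Kif23 had 3.79, 3.92 and 4.25 in node DC, against 7.69, 7.29 and 7.34 in dermal DC (-3.46, SE 0.28), with low signal in node DC. Top2a had 4.56, 4.50 and 4.71 in node DC, against 7.51, 7.81 and 7.13 in dermal DC (-2.90, SE 0.25, adjusted p = 2.4e-10). Again no array of one group reached the other. Cdk1, Birc5, which encodes the mitotic protein survivin, and Cdca3 fell by 2.30, 2.84 and 2.74. Ccnb2 had 4.88, 4.99 and 4.90 in node DC, against 9.64, 8.64 and 9.14 in dermal DC, the widest difference of any member (-4.21, SE 0.46).

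The S phase members split at steady state. Rrm2 and Rrm1 fell by 2.44 (-2.44, SE 0.32) and 1.46 (-1.46, SE 0.37), Pcna by 0.93 (-0.93, SE 0.17) and Mcm7 by 0.72 (-0.72, SE 0.25). Mcm3 had 6.90, 7.07 and 6.85 in node DC, against 6.89, 7.17 and 6.84 in dermal DC, and these ranges coincide (-0.03). Mcm5 was 0.46 lower (-0.46, SE 0.20, adjusted p = 0.13), and the adjusted p was 0.036 without dermal DC array 3. Over all genes 10.1% rose in this comparison. Of 38 other mitotic genes 25 fell and 0 rose, Cenpa (-2.88, SE 0.30), Cdkn3 (-3.16, SE 0.34) and Racgap1 (-2.63, SE 0.29) among them. Of 25 other replication genes 7 fell and 1 rose: Gins3, a subunit of the replicative helicase complex, at 6.71 in node DC and 4.55 in dermal DC (2.16, SE 0.31). Myc fell by 3.62 (-3.62, SE 0.29) and E2f8 fell by 2.38 (-2.38, SE 0.26), whereas Ccng1, a p53 target, rose by 1.57 (SE 0.23). The mean of keratinocyte genes was 4.49 in node DC and 6.43 in dermal DC, that of fibroblast genes 5.10 and 6.42, and that of T cell genes 5.92 and 5.87. Macrophage genes differed more, with a mean of 5.50 in node DC and 8.68 in dermal DC (C1qb, a complement gene, 4.50 and 9.72), and monocyte genes had 4.28 and 6.06. The part of these genes' cells in the result was not tested. All 7 named calls of this comparison held without any 1 array. Mki67, Top2a, Mcm5 and Pcna were not called in any of the 21 comparisons other than those where a rise, a fall or a call of theirs is given here.

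**Figure D4:**
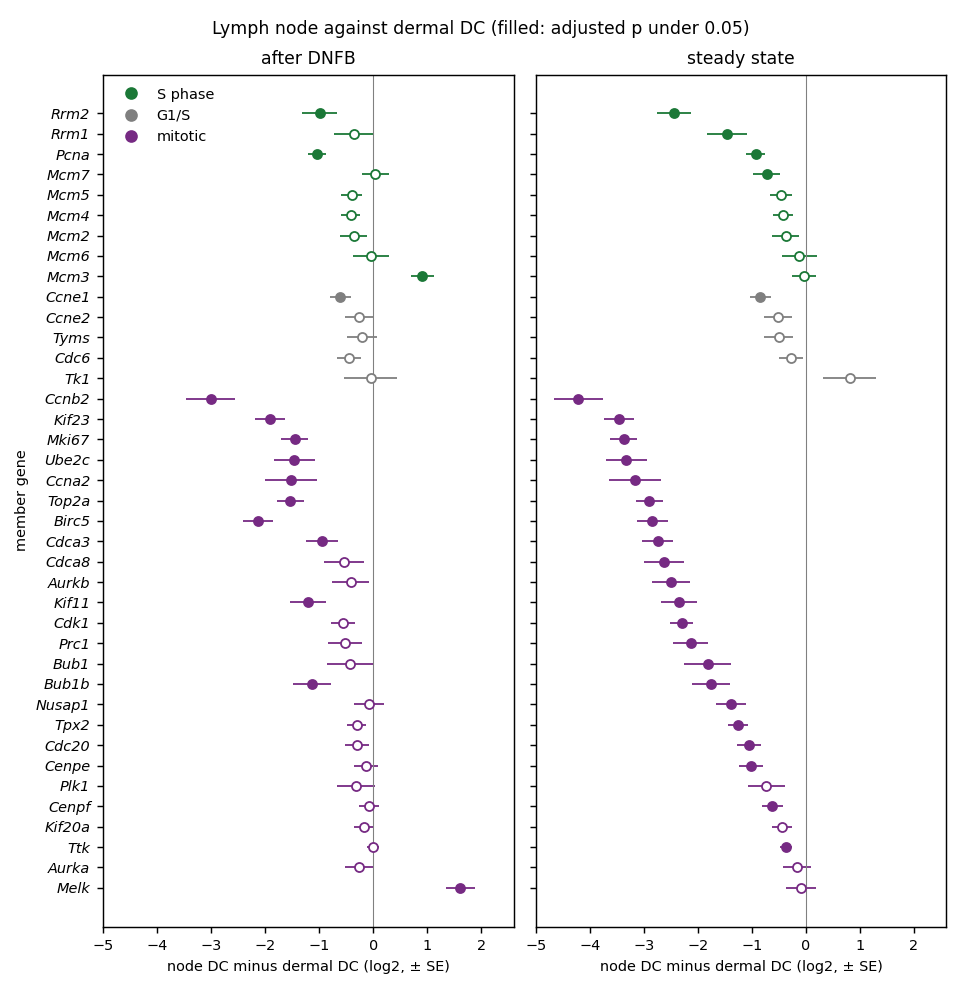
Node DC minus dermal DC in log2 (± SE) for each of the 39 members after DNFB (left) and at steady state (right), coloured by class and filled where the adjusted p is under 0.05. At steady state mitotic genes reach -4.21, and most S phase genes lie nearer 0, while after DNFB Melk and Mcm3 lie to the right of 0.

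DNFB was followed by lower mitotic levels in dermal DC. Of 39 members 12 fell and 0 rose, where 2.06% of all genes fell, 11 of them mitotic with a class median of -0.76, against -0.19 for S phase. Cdca3 had 6.23, 6.46 and 6.26 in dermal DC after DNFB, against 8.29, 7.62 and 7.90 at steady state (-1.62, SE 0.29, adjusted p = 0.00061). Mki67 had 7.26, 7.37 and 7.18 after DNFB, against 8.28, 8.70 and 8.62 at steady state (-1.26, SE 0.25, adjusted p = 0.0016). In both genes every DNFB array was below every steady-state array. Cdca8 fell by 1.91 (-1.91, SE 0.37), Cdk1 by 1.14 (-1.14, SE 0.22) and Aurkb, the Aurora B kinase gene, by 1.42 (-1.42, SE 0.35). The Aurkb call was lost without DNFB array 1 (adjusted p = 0.086) or steady-state array 2 (0.052). Prc1, a gene of the spindle midzone, fell by 1.39 (-1.39), a call lost without DNFB array 1 or steady-state array 2 (adjusted p of 0.061 and 0.098). Top2a fell by 0.89 (-0.89, SE 0.25, adjusted p = 0.035), and this call was lost without any 1 of 5 arrays (adjusted p of 0.068 to 0.18) and when probe sets were averaged (0.14). The other Top2a probe set had low signal in every population, with means between 2.61 and 3.33, so averaging lessens any Top2a difference. The 1 S phase member called was Mcm3 (-0.80, SE 0.22, adjusted p = 0.034). Pcna averaged 10.59 after DNFB and 10.62 at steady state. The count was 5 without DNFB array 1, 6 without DNFB array 2 or steady-state array 1 or 2, and 7 without DNFB array 3. Of 38 other mitotic genes 9 fell and 1 rose, where 2.11% of all genes rose, and among regulators Ccnd2, a G1 cyclin gene, and Cdkn1b, a cyclin kinase inhibitor gene, rose by 1.53 (SE 0.40) and 1.08 (SE 0.29). The mean of conventional DC genes was 8.69 after DNFB and 7.53 at steady state, and that of macrophage genes 7.87 and 8.68. That of monocyte genes was 6.86 and 6.06, of keratinocyte genes 5.47 and 6.43 and of fibroblast genes 5.91 and 6.42. Genes within a list differed. Kit, a receptor kinase gene of the DC list, had 7.54 and 4.14, but Zbtb46 had 6.39 and 6.25 and Itgax 8.81 and 9.11. Among macrophage genes C1qc had 7.49 and 10.20, but Fcgr1, which encodes CD64, had 7.98 and 5.94. Among monocyte genes Plac8 had 10.28 and 5.51, but F13a1 had 6.04 and 7.69. The part of these lists was not tested.

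P2 cells had lower medians of both classes after DNFB. Of 39 members 5 fell, all mitotic, and 0 rose, where 0.998% of all genes fell. The median difference was -0.56 for mitotic and -0.59 for S phase members. Top2a had 4.81, 4.91 and 5.06 in P2 after DNFB, against 6.72, 6.01 and 6.11 at steady state (-1.36, SE 0.25, adjusted p = 0.0017). It alone among the 5 kept its call without any 1 array, and with only the compared groups fitted the count was 0 (Top2a adjusted p = 0.068). Mki67, Cdca3, Cdk1 and Prc1 fell by 1.04, 1.22, 0.88 and 1.22, the last with low signal after DNFB. The count was 1 without DNFB array 2, 2 without DNFB array 3 or steady-state array 3 and 3 without steady-state array 1. E2f8 fell by 1.14 (-1.14, SE 0.26). The mean of fibroblast genes was 7.30 after DNFB and 8.52 at steady state, and that of keratinocyte genes 6.25 and 7.37. That of monocyte genes was 10.11 and 9.21, of macrophage genes 9.96 and 9.34 and of neutrophil genes 5.24 and 4.38. In the neutrophil list S100a9, a granulocyte and monocyte gene, had 8.23 and 3.90, S100a8 8.59 and 5.77 and Cxcr2 4.03 and 3.13. Other genes of that list hardly differed: Ly6g had 2.84 and 2.78, Mpo 4.53 and 4.42, Elane 4.44 and 4.43 and Ngp 3.74 and 3.82. The part of these lists was not tested.

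In P1 no member was called after DNFB (0 of 39), where 0.637% of all genes were called. Top2a had 4.71 and 4.73 in P1 after DNFB, against 4.33, 4.00 and 3.79 at steady state. The DNFB effect on Top2a was lower in P2 than in P1 by 2.04 (-2.04, SE 0.37, adjusted p = 0.026), the 1 member called in that test of the difference, where 0.0552% of all genes fell. The low signal in 2 steady-state P1 arrays leaves its size inexact. This call was lost without any 1 of 5 arrays: P1 DNFB array 1 or 2, P1 steady-state array 3, P2 steady-state array 1 or P2 DNFB array 2. The adjusted p was then 0.055 to 0.15, and it was 0.3 with only the compared groups fitted and 0.28 with probe sets averaged. The DNFB effect in dermal DC against that in P2 gave no call (0 of 39), where 0.251% of all genes were called.

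In node DC 1 member rose after DNFB and 0 fell, where 0.903% of all genes rose. Melk had 6.68, 6.10 and 6.58 after DNFB, against 4.76, 5.72 and 5.55 at steady state (1.11, SE 0.27, adjusted p = 0.034). The groups did not overlap, but the call was lost without any 1 of 4 arrays (node DC array 1 or 3 of either condition), with adjusted p between 0.056 and 0.28, and also with array medians centred or only the compared groups fitted. Mki67 had 5.71, 5.68 and 6.08 after DNFB, against 5.01, 5.57 and 4.92 at steady state, and was not called. Outside the set Dnmt1, the maintenance DNA methyltransferase gene, rose by 1.54 (SE 0.17), its partner Uhrf1 by 1.79 (SE 0.36) and Ccnd2 by 2.55 (SE 0.40).

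**Figure D5:**
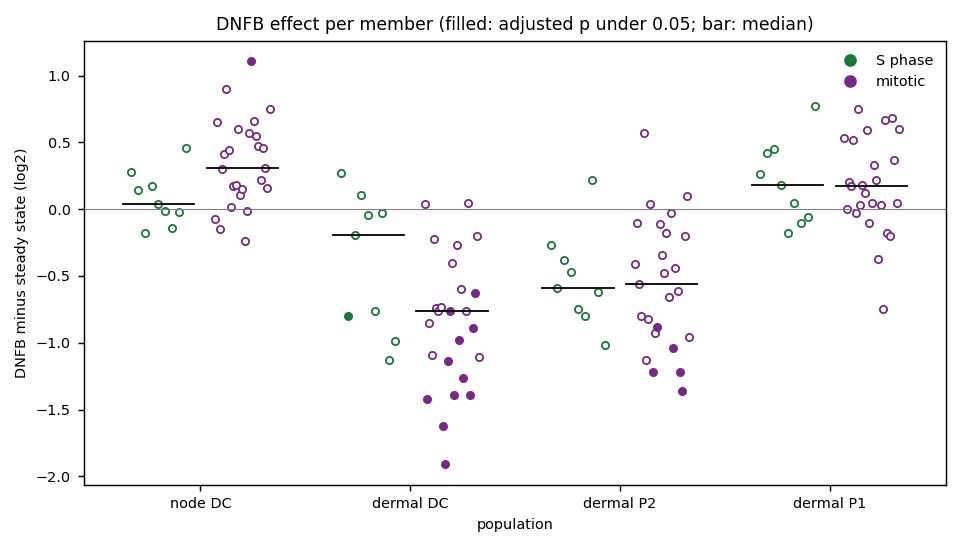
DNFB minus steady state in log2 for each S phase and mitotic member in 4 populations, filled where the adjusted p is under 0.05, with class medians as bars. The mitotic median is 0.31 in node DC, -0.76 in dermal DC, -0.56 in P2 and 0.17 in P1.

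After DNFB, node DC were below dermal DC in 13 members, where 9.04% of all genes fell, and above them in 2, where 8.44% of all genes rose. The class medians were -0.52 for mitotic and -0.36 for S phase members. Birc5 had 4.77, 4.65 and 4.42 in node DC, against 6.35, 6.74 and 7.14 in dermal DC (-2.13, SE 0.28, adjusted p = 1.1e-06). Ccnb2, Kif23, Top2a and Mki67 fell by 3.01, 1.91, 1.54 and 1.45, and Pcna by 1.04. The rises were Melk, at 6.68, 6.10 and 6.58 in node DC and 4.69, 4.95 and 4.88 in dermal DC (1.61, SE 0.27, adjusted p = 4.7e-05), and Mcm3, at 6.86, 7.05 and 7.33 in node DC and 6.37, 5.88 and 6.26 in dermal DC (0.91, SE 0.22, adjusted p = 0.003). Neither gene's arrays overlapped between the groups. Dnmt1 and Uhrf1 were also higher in node DC (1.50, SE 0.17, and 1.90, SE 0.36), and Cenpa and Myc lower (-3.60, SE 0.30, and -3.83, SE 0.29). The mean of keratinocyte genes was 4.46 in node DC and 5.47 in dermal DC, that of T cell genes 5.82 and 5.96, of macrophage genes 5.46 and 7.87 and of monocyte genes 4.26 and 6.86, and their part was not tested.

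The DNFB effect itself differed between node DC and dermal DC in 8 members, all mitotic and all higher in node DC, where 0.813% of all genes rose. The class median of this difference was 1.31 for mitotic and 0.08 for S phase members. Cdk1 had a DNFB effect of 0.60 in node DC and -1.14 in dermal DC, a difference of 1.74 (SE 0.31, adjusted p = 0.0017), and Mki67 of 0.66 and -1.26, a difference of 1.92 (SE 0.35, adjusted p = 0.0024). Both held without any 1 array. Cdk1 was near low signal in steady-state node DC (4.12, 4.16 and 4.05), so a fall there like that in dermal DC could hardly have shown. Mki67 (5.17) and Aurkb (4.85) also had their lowest population means in steady-state node DC. Cdca3 (5.19) was near its lowest mean, 5.09 in steady-state P1. Melk, Cdca8 and Top2a had their lowest means in blood monocytes instead (3.91, 4.31 and 3.88). The mitotic class median includes all these members, and its dependence on the starting level was not tested. Melk, Cdca3, Aurkb and Cdca8 differed by 1.71, 1.79, 2.07 and 2.09, calls lost without any 1 of 3, 4, 6 and 8 of the 12 arrays, in that order. Top2a and Kif23 were nearest the threshold, at 1.36 (adjusted p = 0.047) and 1.55 (adjusted p = 0.049), and the size of the Kif23 difference is inexact because its signal was low in steady-state node DC. Top2a was lost without any 1 of 10 arrays (adjusted p of 0.069 to 0.15) and under 5 other settings: the replicate block (0.056), centred array medians (0.081), the mean of probe sets (0.27), the intensity trend (0.053) and only the compared groups (0.065). The count was 2 without DNFB dermal DC array 1, 3 without steady-state node DC array 3, 4 without steady-state node DC array 1, steady-state dermal DC array 1 or 2 or DNFB node DC array 2 or 3, and 5 without DNFB dermal DC array 2.

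Among DNFB-treated dermal cells, dermal DC were above P2 in 9 members (6 mitotic, 3 S phase) and below in 0, where 1.79% of all genes rose. Top2a had 6.64, 6.43 and 6.70 in dermal DC, against 4.81, 4.91 and 5.06 in P2 (1.66, SE 0.25, adjusted p = 5e-05). Birc5 and Ccnb2 rose by 1.32 (SE 0.28) and 1.93 (SE 0.46), and the helicase genes Mcm7, Mcm5 and Mcm2 by 1.02 (SE 0.25), 0.80 (SE 0.20) and 0.97 (SE 0.25). The count was 1 without dermal DC array 3, 3 without P2 array 2 or 3 and 5 without dermal DC array 2, and Top2a held without any 1 array. P2 against P1 after DNFB gave 1 rise, Mki67, where 0.286% of all genes rose. It had 6.68, 7.11 and 7.32 in P2, against 5.46 and 5.95 in P1 (1.33, SE 0.28, adjusted p = 0.014), and the count was 0 without P1 array 1 or P2 array 2 or 3 and with only the compared groups fitted.

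The CD64+ cells of the node after DNFB were compared with node DC and with dermal P2 cells. Against node DC, 2 of 39 members rose and 0 fell, where 3.82% of all genes rose. The share of members that rose is thus near that of all genes. Bub1b, a spindle checkpoint gene, had 5.70, 6.24 and 7.08 in node CD64+ cells, against 4.58, 4.41 and 4.81 in node DC (1.74, SE 0.35, adjusted p = 0.0015), and Kif23 rose by 1.22 (SE 0.28). The count was 1 without node DC array 1 or CD64+ array 3 and 4 without CD64+ array 1. Against dermal P2 cells after DNFB 4 members rose, where 7.26% of all genes rose, and 1 fell, where 5.37% of all genes fell. The share of members that rose is little above that of all genes, and the share that fell is below it. Melk had 6.14, 6.58 and 5.66 in node CD64+ cells, against 4.56, 4.21 and 3.84 in P2 (1.92, SE 0.27, adjusted p = 5.2e-06). Mcm3 had 6.95, 6.66 and 6.66 in node CD64+ cells, against 5.69, 5.57 and 5.27 in P2 (1.24, SE 0.22, adjusted p = 0.00012). Both genes were higher in every node array. Mcm7 and the spindle gene Tpx2 rose by 1.14 (SE 0.25) and 0.77 (SE 0.18), and Pcna fell by 0.72 (-0.72, SE 0.17, adjusted p = 0.0042, and 0.057 with probe sets averaged). With only the compared groups fitted 8 members were called, and the share of all genes called in that fit was not counted. Mki67 was 0.71 lower in node CD64+ cells (-0.71) without a call, and became one with the replicate block (adjusted p = 0.021), with low values left out (0.047), with only the compared groups fitted (0.047) and without P2 array 1 (0.029). Dnmt1, Uhrf1 and Ccnd2 rose by 1.09, 1.94 and 2.23. The mean of keratinocyte genes was 4.32 in node CD64+ cells and 6.25 in P2, that of fibroblast genes 5.37 and 7.30, that of T cell genes 6.10 and 5.14 and that of monocyte genes 6.73 and 10.11, and their part was not tested.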

How the data were processed

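The 38 Affymetrix Gene 1.0 ST arrays carry RNA of CD11b+ cells sorted into 13 populations. Each sort of 5000 to 10000 cells yielded 5 to 20 ng of RNA, per the labels' protocols. The authors deposited log2 intensities for each probe set, made with RMA in affy without a stated version, per the submitters' processing notes, and these were used as they stand. Replicates are separate pools of mice. The series describes 3 chip batches without assigning arrays to them, so no batch term was fitted. Source name numbers were 1, 2 and 4 at steady state (1, 2 and 3 in node DC), and 3, 4 and 5 after DNFB (3 and 4 in P1). A shift that goes with these numbers is thus partly mixed with DNFB. Arrays of a population correlated at 0.931 to 0.986.

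Of 34760 probe sets, 21640 with 1 symbol were kept, and the one with the highest mean stood for each of 19937 genes. A mean per population was fitted in limma 3.58.1 (R 4.3.3; 25 residual and 3.13 prior degrees of freedom), with 21 comparisons, of which 3 are differences of DNFB effects, and p-values were adjusted by Benjamini-Hochberg over all genes. With 3 arrays a group, each p leans on the spread of all 13 populations. Python 3.11.15 with matplotlib 3.10.9 served for the plots, and the fit was tested on simulated data.

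Members named per comparison are up to 6 calls with the smallest adjusted p, and Mki67, Top2a, Mcm5 and Pcna. Of other lists up to 5 genes were named by adjusted p. Ccnb2, Mcm3, Rrm1, Rrm2, Mcm7, Kif23 and Melk, where named outside this rule, were chosen after their values were seen. The members and lists were chosen with earlier results of these data known. Alternatives tried were the replicate number as a block, the source name number as a random block, centred array medians, low values left out (14841 genes kept), the mean of all probe sets, a variance trend on intensity with robust moderation, the compared groups alone and leaving out 1 array at a time. Under these alternatives members were counted, but not the share of all genes called.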

Additional observations from a re-analysis of the deposited data

Results flagged for a closer look

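A test of the difference between DNFB effects passed for 9 results. In Top2a the effect was lower in P2 than in P1 by 2.04 (-2.04, adjusted p = 0.026). Between node DC and dermal DC the effect was higher in node DC by 1.74 for Cdk1, 1.92 for Mki67, 1.71 for Melk, 1.79 for Cdca3, 2.07 for Aurkb, 2.09 for Cdca8, 1.36 for Top2a and 1.55 for Kif23, with adjusted p between 0.0017 and 0.049. The size is inexact for Kif23, which had low signal in steady-state node DC, and for the P2 and P1 difference of Top2a, which had low signal in 2 steady-state P1 arrays. Cdk1 was near low signal in steady-state node DC, where a fall like that in dermal DC could hardly have shown. Mki67 and Aurkb had their lowest population means in steady-state node DC, and Cdca3 was near its lowest there. How far the differences depend on these starting levels was not tested. No cause was tested.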

How the results depend on the processing

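The replicate numbers of the titles give the samples a shared number only: deviations of same-numbered arrays correlated at -0.26 to 0.35, and 7 of 52 values were above 0.1, in no comparison for all pairs. With the replicate block all 21 counts stayed within 1.5 times and all 42 class medians within their spread, for example 26 members called between node DC and dermal DC at steady state, as without it. Among named members it brought Mki67 past the threshold for node CD64+ cells minus P2 (adjusted p = 0.021) and ended the call of Top2a in the node DC minus dermal DC difference of effects (0.056). The source name number as a random block, low values left out and the intensity trend moved no count or median either. Leaving out low values brought Top2a past the threshold for dermal DC against P3 (adjusted p = 0.045) and Mki67 for node CD64+ cells minus P2 (0.047).

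Fitting only the compared groups leaves few arrays to estimate the spread, and the counts were then 2 for P2 minus P1 (10 in the fit of all arrays), 0 for dermal DC minus P3 (3), 0 for P5 minus P3 (1), 11 for P5 minus dermal DC (20), 13 for P4 minus dermal DC (28), 0 for DNFB in P2 (5), 0 for DNFB in node DC (1), 0 for P2 minus P1 after DNFB (1), 8 for node CD64+ cells minus P2 (5) and 0 for the P2 minus P1 difference of DNFB effects (1). With the mean of all probe sets the count was 1 for P1 minus blood (2) and 0 for the P2 minus P1 difference of effects (1), and Pcna changed sign to 0.13 for P5 minus P4 and 0.16 for dermal DC minus P2 after DNFB. With array medians centred the count was 0 for DNFB in node DC (1), and Mcm5 was -0.07 for P1 minus blood. The causes were not tested.

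Without 1 array at a time, the counts at steady state ran over 6 to 10 for P2 minus P1, 0 to 1 for P3 minus P2, 0 to 10 for dermal DC minus P3 and 0 to 2 for P5 minus P3. For DNFB they ran over 1 to 4 in P2, 5 to 13 in dermal DC and 0 to 1 in node DC. After DNFB they ran over 0 to 1 for P2 minus P1, 1 to 8 for dermal DC minus P2 and 1 to 4 for node CD64+ cells minus node DC. For the differences of effects they ran over 0 to 1 for P2 minus P1 and 2 to 9 for node DC minus dermal DC. The S phase median ran over -0.65 to -0.42 for node DC minus dermal DC at steady state, 0.05 to 0.25 for DNFB in P1, -0.66 to -0.37 for DNFB in P2 and 0.04 to 0.18 for P2 minus P1 after DNFB, where the mitotic median ran over 0.04 to 0.12. For the differences of effects the mitotic and S phase medians ran over -0.88 to -0.60 and -0.87 to -0.55 for P2 minus P1 and 1.00 to 1.53 and 0.04 to 0.45 for node DC minus dermal DC, and the S phase median over -0.13 to 0.29 for dermal DC minus P2.

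Members without a call that changed sign when 1 array was left out were Mcm5 for P1 minus blood (-0.14 to 0.10), P3 minus P2 (-0.15 to 0.07), dermal DC minus P3 (-0.02 to 0.48), P5 minus P4 (-0.28 to 0.03), DNFB in dermal DC (-0.08 to 0.41), P2 minus P1 after DNFB (-0.10 to 0.16), node CD64+ cells minus node DC (-0.01 to 0.26) and the node DC minus dermal DC difference of effects (-0.24 to 0.25). Pcna did so for P2 minus P1 (-0.27 to 0.23), P5 minus P3 (-0.06 to 0.10), P5 minus P4 (-0.11 to 0.05), DNFB in P1 (-0.22 to 0.03), P2 (-0.07 to 0.43) and dermal DC (-0.16 to 0.05), dermal DC minus P2 after DNFB (-0.22 to 0.02) and the differences of effects for dermal DC minus P2 (-0.47 to 0.04) and node DC minus dermal DC (-0.20 to 0.02). For P5 minus P4, Mki67 ran over -0.40 to 0.29 and Top2a over -0.22 to 0.10.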
